A study of Mus musculus with 15 samples.

Results

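The striatal signalling genes described here are 7 genes taken by symbol from the cortex RNA-seq table: the receptor genes Drd2 and Adora2a, the signal transduction genes Ppp1r1b, Rgs9, Rasd2 and Pde10a, and the transcription factor gene Rarb. All 7 were found among the 23235 genes of the table. They were taken to judge how far the cortex samples hold striatal RNA and where dopamine signalling genes stood in each group.

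RNA-seq was performed on dissected cortex of adult male mice killed at Zeitgeber time (Zt) +6, in the light phase, or Zt +16, in the dark phase. Wild type (WT) mice were C57BL/6J, and Snord116del mice were their B6(Cg)-Snord116tm1.1Uta/J littermates, labelled Snord116del (+/-), in which the Snord116 small nucleolar RNA cluster of the Prader-Willi locus is deleted from the allele inherited from the father. Every tissue of these mice carries the deletion, the cortex and the striatum alike. The groups were WT at Zt +6 (3 mice), Snord116del at Zt +6 (2 mice), WT at Zt +16 (2 mice) and Snord116del at Zt +16 (2 mice). The table holds 1 FPKM value (sequenced fragments scaled to transcript length and to the total mapped) for each gene and group, and none for a single mouse, so no spread between mice, standard error or p-value can be given for any value below. The labels tie both Snord116del mice at Zt +6 and WT mouse 1 at Zt +6 to an earlier version of the table, which was not used here.

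Dopamine acts on medium spiny neurons, the main projection neurons of the striatum, through Drd1-class receptors that raise cyclic AMP and Drd2-class receptors that lower it. In the same neurons the adenosine receptor Adora2a opposes Drd2, the product of Ppp1r1b (DARPP-32) is phosphorylated downstream of cyclic AMP and then inhibits protein phosphatase 1, and Pde10a breaks cyclic nucleotides down. These genes are far more strongly expressed in striatum than in cortex, although cortical neurons also express some of them, and the striatum lies directly beneath the cortex, so they are commonly read as a sign of striatal tissue in a dissection.

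Ppp1r1b was the highest of the 7 genes in every group, and Rarb and Adora2a were the lowest. In WT at Zt +6 the order by FPKM was Ppp1r1b, Rasd2, Rgs9, Pde10a, Drd2, Adora2a and Rarb. Pde10a moved above Rgs9 in Snord116del at Zt +6, and Rgs9 moved above Rasd2 in both groups at Zt +16. With 1 value per group it cannot be said which neighbours in this order differ. The summed FPKM of the 7 genes was 29.5 in WT at Zt +6, 61.2 in Snord116del at Zt +6, 27.0 in WT at Zt +16 and 52.5 in Snord116del at Zt +16.

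**Figure D1:**
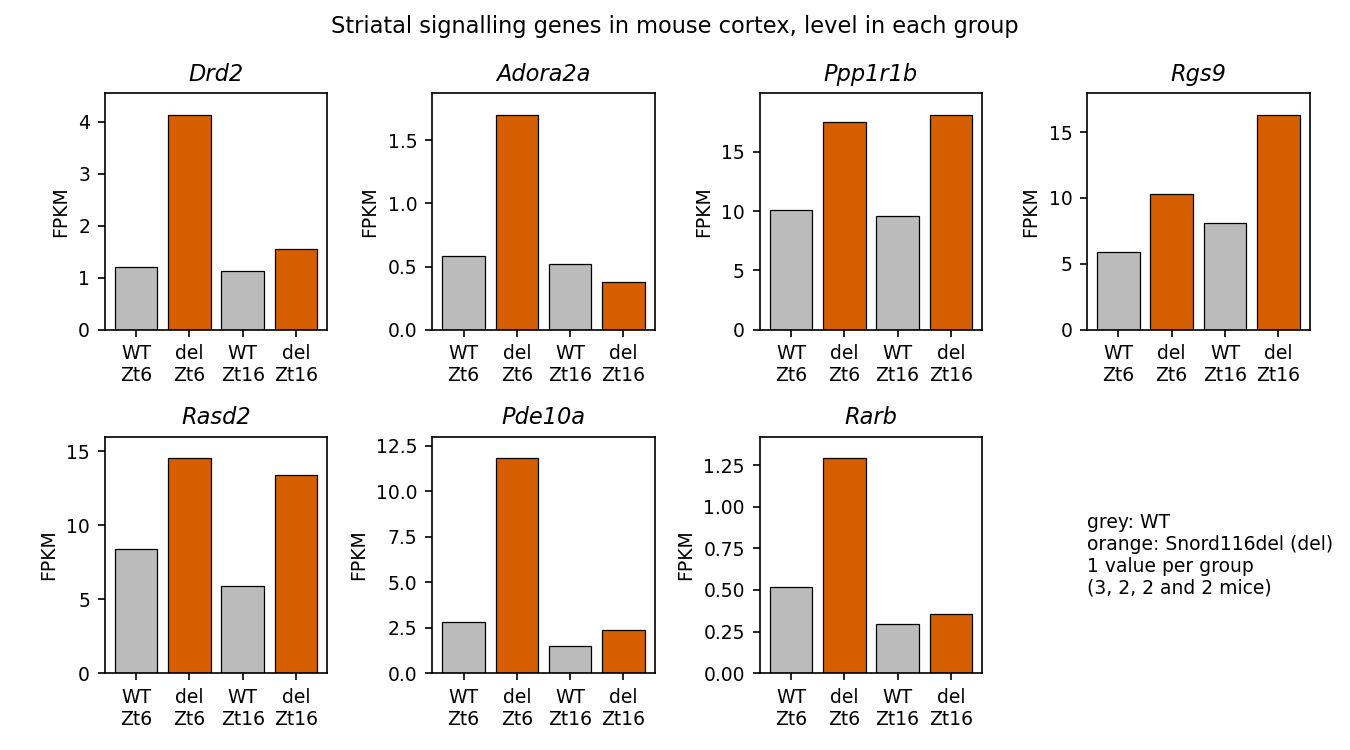
FPKM (vertical axis, from 0, a separate scale for each gene) of the 7 striatal signalling genes in the 4 cortex groups, with grey bars for WT and orange bars for Snord116del (del); each bar is the 1 deposited value of a group and has no error bar. Ppp1r1b, Rgs9 and Rasd2 are higher in Snord116del at both times, and Drd2, Adora2a, Pde10a and Rarb have their highest bar in Snord116del at Zt +6.

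A gene was counted as changed where FPKM + 1 differed 1.5-fold or more between a pair of groups and reached 1 FPKM in the higher of them. Only the 10297 genes whose mean over the 4 groups reached 1 FPKM were tested in this way. Ppp1r1b, Drd2, Rgs9, Pde10a and Rasd2 passed this filter, and each would also have passed on its mean without its highest group, which was 1.29 FPKM for Drd2, 2.22 FPKM for Pde10a and 8.11 FPKM or more for the others. Adora2a (mean 0.794 FPKM) and Rarb (mean 0.616 FPKM) did not pass, and their values are given without a call. Some genes of the lists below passed only through Snord116del at Zt +6, such as Emx1, Gpr6, Maob, Prkar2a, Creb1, Prkcd, Slc17a6, Pecam1 and Flt1. Their calls as higher at Zt +6 rest on the same value that let them pass, so list counts at Zt +6 carry this limit. Differences below are on the log2(FPKM + 1) scale, which understates the change of low genes, and ratios are of FPKM itself.

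At Zt +6 all 5 genes that passed the filter were higher in Snord116del than in WT cortex, and 5073 of the 10297 genes (49.3%) were counted as higher in the same comparison, against 785 (7.62%) as lower. The median difference over the 5 genes was 0.74 and that over all tested genes was 0.57. The call for Ppp1r1b, Rgs9 and Rasd2 therefore lies close to the shift of the whole table, while Pde10a and Drd2 lay further above it.

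At Zt +16 Ppp1r1b, Rgs9 and Rasd2 were higher in Snord116del, against 19.0% of all tested genes counted as higher and 0.204% as lower. Their differences were 0.85, 0.93 and 1.06, beside a median of 0.35 over all tested genes. Drd2 (0.27) and Pde10a (0.44) were not counted as changed. Ppp1r1b, Rgs9 and Rasd2 thus had smaller differences than Drd2 and Pde10a at Zt +6 and larger ones at Zt +16.

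Drd2 encodes the dopamine D2 receptor of striatopallidal neurons, which couples to inhibitory G proteins. Its gene lies at chr9:49148732-49216282 on the plus strand of mm9. Drd2 was listed at 1.20 FPKM in WT at Zt +6, 4.13 in Snord116del at Zt +6, 1.12 in WT at Zt +16 and 1.56 in Snord116del at Zt +16. The Snord116del group at Zt +6 stood apart and the other 3 groups lay close together. The ratio of Snord116del to WT was 3.44 at Zt +6 and 1.38 at Zt +16, and the log2 difference was 0.65 above the median of all tested genes at Zt +6 and 0.09 below it at Zt +16.

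Adora2a encodes an adenosine receptor that is found with Drd2 on striatopallidal neurons and raises cyclic AMP. Its gene lies at chr10:74779688-74797533 on the plus strand. Adora2a was listed at 0.583 FPKM in WT at Zt +6, 1.70 in Snord116del at Zt +6, 0.518 in WT at Zt +16 and 0.379 in Snord116del at Zt +16. As with Drd2, the single high value was that of Snord116del at Zt +6, but at Zt +16 the Snord116del value was the lower one, with a ratio to WT of 0.732.

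Ppp1r1b encodes DARPP-32, which integrates dopamine and glutamate signals by its state of phosphorylation. The gene spans chr11:98209718-98219110 on the plus strand, and the long non-coding RNA gene 1700003D09Rik is annotated on the opposite strand across its 3′ part. Because the strand setting of the counting is not given in the sources used here, reads of the pair cannot be told apart. Ppp1r1b was listed at 10.1 FPKM in WT at Zt +6, 17.5 in Snord116del at Zt +6, 9.59 in WT at Zt +16 and 18.1 in Snord116del at Zt +16. The values paired by genotype and not by time: both Snord116del values were above both WT values, with ratios to WT of 1.74 at Zt +6 and 1.89 at Zt +16.

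Rgs9 encodes a regulator of G protein signalling whose brain form speeds the turn-off of signals from Drd2. The gene spans chr11:109086669-109159443 on the minus strand. Rgs9 was listed at 5.93 FPKM in WT at Zt +6, 10.3 in Snord116del at Zt +6, 8.11 in WT at Zt +16 and 16.3 in Snord116del at Zt +16. Both Snord116del values were above both WT values, and in each genotype the value at Zt +16 was above that at Zt +6. The ratio of Snord116del to WT was 1.74 at Zt +6 and 2.01 at Zt +16.

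Rasd2 encodes Rhes, a small GTP-binding protein enriched in striatum. The gene spans chr8:77737843-77748012 on the plus strand. Rasd2 was listed at 8.36 FPKM in WT at Zt +6, 14.5 in Snord116del at Zt +6, 5.91 in WT at Zt +16 and 13.4 in Snord116del at Zt +16. Both Snord116del values were again above both WT values, with ratios to WT of 1.73 and 2.28. Among all tested genes the difference of Rasd2 at Zt +16 stood at percentile 99.2, that of Rgs9 at 97.8 and that of Ppp1r1b at 96.3.

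Pde10a encodes the phosphodiesterase that hydrolyses cyclic AMP and cyclic GMP in medium spiny neurons. The gene spans chr17:8718237-9179513 on the plus strand, 461 kb, and the pseudogenes Gm15425, Gm15426 and Gm17087 are annotated inside it on the opposite strand. Pde10a was listed at 2.82 FPKM in WT at Zt +6, 11.8 in Snord116del at Zt +6, 1.47 in WT at Zt +16 and 2.36 in Snord116del at Zt +16. The value of Snord116del at Zt +6 stood apart, and the other 3 were under 3 FPKM. The ratio of Snord116del to WT was 4.17 at Zt +6, the largest of the 7 genes, and 1.60 at Zt +16.

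Rarb encodes retinoic acid receptor beta, a transcription factor of striatal neurons. The gene spans chr14:17263356-17651381 on the minus strand, 388 kb. Rarb was listed at 0.520 FPKM in WT at Zt +6, 1.29 in Snord116del at Zt +6, 0.297 in WT at Zt +16 and 0.353 in Snord116del at Zt +16. It showed the order of groups seen for Pde10a, at a level low in every group.

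**Figure D2:**
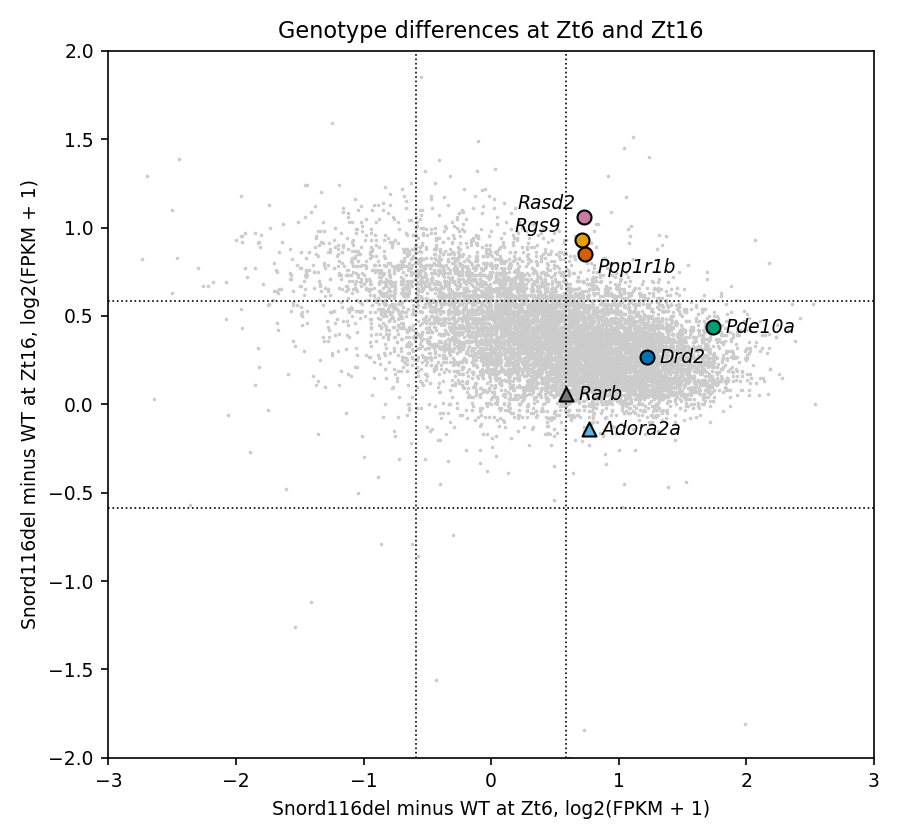
Snord116del minus WT on the log2(FPKM + 1) scale at Zt +6 (horizontal axis) and Zt +16 (vertical axis) for the tested genes within the axes (grey) and the 7 striatal signalling genes (coloured; triangles are Adora2a and Rarb, which did not pass the filter); dotted lines mark the 1.5-fold limit. Ppp1r1b, Rgs9 and Rasd2 lie together past the limit at both times, whereas Pde10a and Drd2 lie past it at Zt +6 only; under the same median in every group the Zt +6 values of Ppp1r1b, Rgs9 and Rasd2 become -0.03.

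By time of day, Pde10a was the only gene of the 5 counted as changed in WT, lower at Zt +16 by 0.63, where 10.3% of tested genes were counted as lower and 5.71% as higher. In Snord116del, Pde10a (-1.93) and Drd2 (-1.01) were lower and Rgs9 (0.61) was higher at Zt +16, where 39.1% of tested genes were counted as lower and 25.0% as higher. Ppp1r1b differed by -0.06 in WT and 0.05 in Snord116del, and Rasd2 by -0.44 and -0.10. The comparisons by time and by genotype share groups, so these values are another view of the same 4 numbers for each gene.

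The difference at Zt +16 minus that at Zt +6 was 0.11 for Ppp1r1b, 0.22 for Rgs9 and 0.34 for Rasd2. It was -0.96 for Drd2 and -1.30 for Pde10a, with a median of 0.11 over the 5 genes and -0.22 over all tested genes. Whether any of these differs from 0 beyond the spread between mice was not tested.

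The 5 genes differed in transcript length, and differences at Zt +6 moved with length over the whole table. In 20 equal bins of transcript length the median difference at Zt +6 rose from -0.47 in the shortest bin to 1.34 in the longest, while at Zt +16 it went from 0.59 to 0.18. Pde10a has an annotated transcript of 7717 bases and shared its bin with genes whose median was 1.15 at Zt +6. Ppp1r1b, at 2001 bases, is the shortest of the 7, and its bin had a median of 0.34. With the bin medians subtracted, the Zt +6 differences were 0.40 for Ppp1r1b, 0.05 for Rgs9 and 0.27 for Rasd2, all under the 1.5-fold limit. Drd2 fell from 1.22 to 0.79 and Pde10a from 1.74 to 0.59, which is just past that limit. The trend belongs to the whole comparison at Zt +6, so its part in these differences cannot be told apart from that of the genotype.

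**Figure D3:**
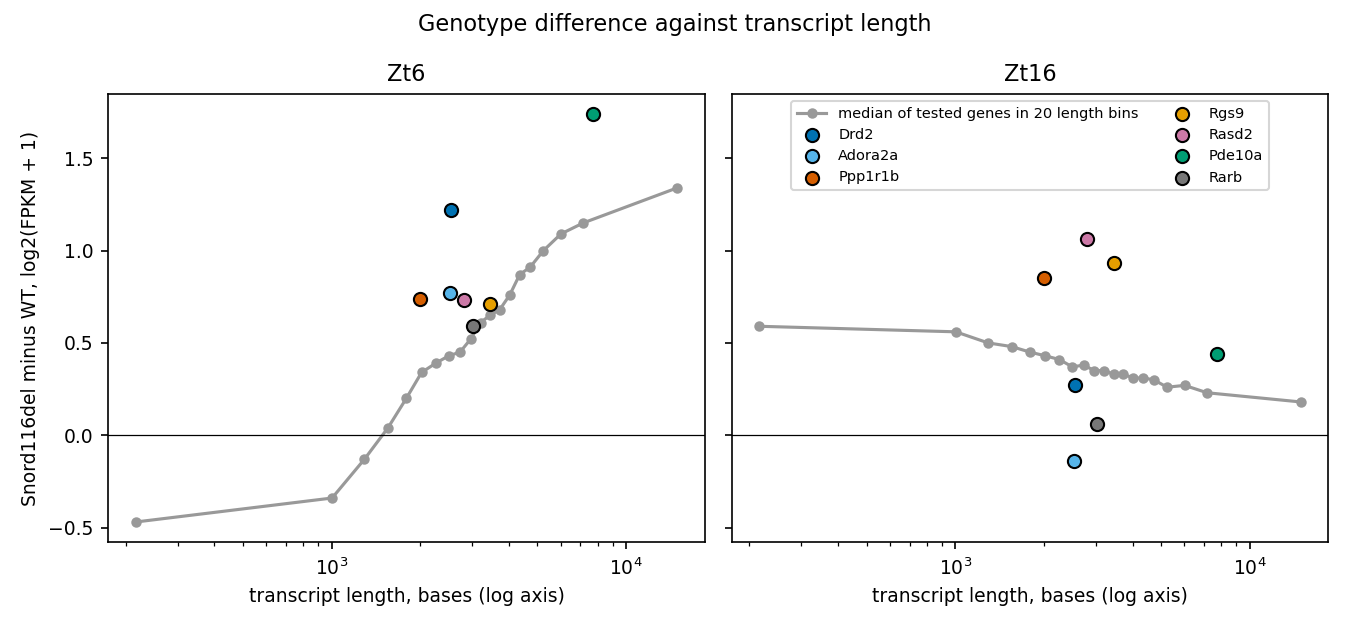
Snord116del minus WT on the log2(FPKM + 1) scale (vertical axis) against transcript length in bases (horizontal log axis) at Zt +6 (left) and Zt +16 (right), with the median of the tested genes in each of 20 length bins (grey line) and the 7 striatal signalling genes (coloured points). The grey line climbs from -0.47 to 1.34 at Zt +6 and falls from 0.59 to 0.18 at Zt +16; Rgs9 lies on it at Zt +6, and Drd2 and Pde10a lie above it.

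The scale given to the groups also decided calls. Scaling each group to the same median over the tested genes brought the median difference of all genes at Zt +6 from 0.57 to -0.06, left Drd2 and Pde10a past the limit and put Ppp1r1b, Rgs9 and Rasd2 at -0.03. Scaling to the same total FPKM, which was 216422 in WT and 342188 in Snord116del at Zt +16, left all 5 genes past the limit at Zt +6 and none at Zt +16. Of all tested genes, 14.8% were higher at Zt +6 with the same median. With the same total 50.9% were higher at Zt +6 and 0.311% at Zt +16, so these counts move with the whole table.

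**Figure D4:**
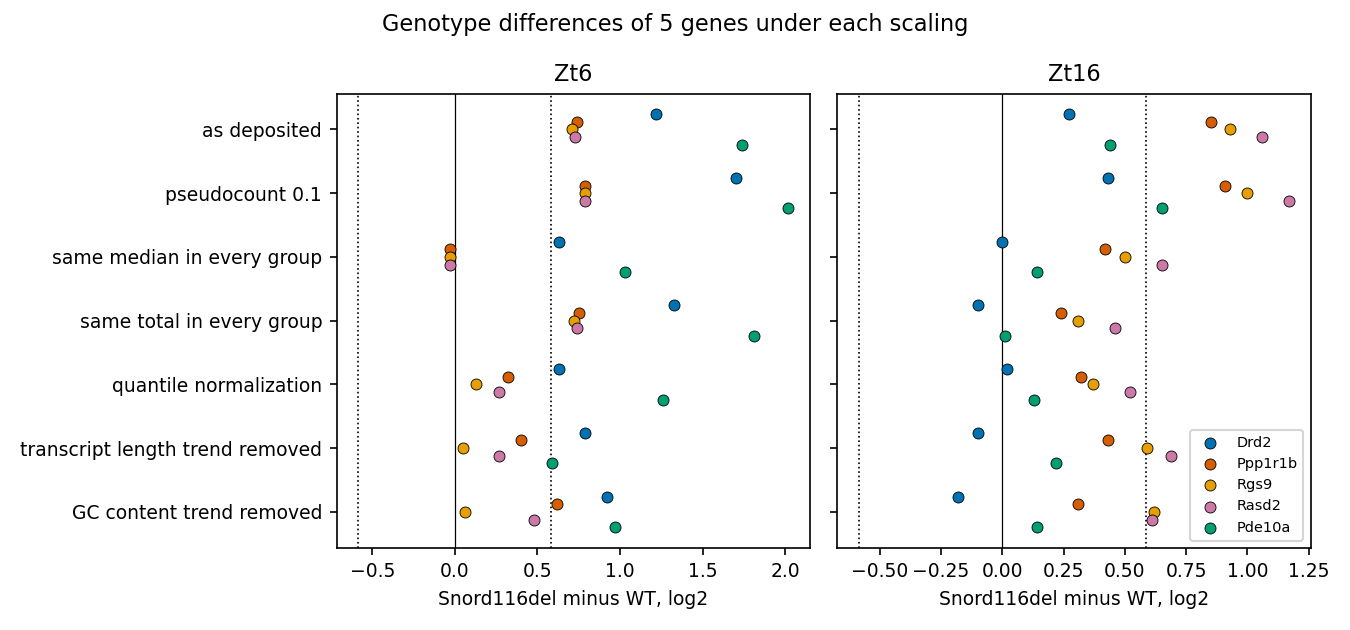
Snord116del minus WT in log2 (horizontal axis) at Zt +6 (left) and Zt +16 (right) for the 5 genes that passed the filter, as deposited and under 6 other treatments of the values (rows); dotted lines mark the 1.5-fold limit. Drd2 and Pde10a stay past the limit in every row at Zt +6, while Ppp1r1b, Rgs9 and Rasd2 fall to -0.03 with the same median in every group.

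Within a group, the rank of a gene does not depend on the scale, but the ranks were not corrected for the transcript length trend described above. Ppp1r1b stood between percentiles 77.4 and 82.9 of the tested genes in the 4 groups and Rasd2 between 68.0 and 79.4. For Rgs9 the percentile was 67.9 in WT against 70.4 in Snord116del at Zt +6, and 74.5 against 79.8 at Zt +16. Pde10a went from 46.2 in WT to 74.1 in Snord116del at Zt +6 and from 30.1 to 34.7 at Zt +16. Drd2 went from 14.8 to 37.1 at Zt +6 and from 21.4 to 21.9 at Zt +16.

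The label of the samples as cortex was checked against 11 genes of cortical excitatory neurons, all of which passed the filter. Slc17a7, the vesicular glutamate transporter of these neurons, was listed at 105, 127, 60.3 and 120 FPKM in WT and Snord116del at Zt +6 and WT and Snord116del at Zt +16. Where a pair of values is given for a time from here on, WT comes first. The sum of the 11 genes was 160 and 237 FPKM at Zt +6 and 106 and 184 at Zt +16. Slc17a7 alone made up most of that sum in every group, so ratios to the sum rest largely on this gene. The ratios were not corrected for the transcript length trend. The summed FPKM of the 7 striatal signalling genes came to 0.184 of the cortical sum in WT at Zt +6 against 0.259 in Snord116del, and at Zt +16 to 0.255 against 0.286. In bulk tissue, fewer cells of a type and less RNA per cell cannot be told apart. Relative to the cortical genes, Pde10a was 0.0177 and 0.0498 at Zt +6 and 0.0139 and 0.0128 at Zt +16. Rgs9 was 0.0371 and 0.0435 at Zt +6 and 0.0766 and 0.0886 at Zt +16, so by this measure its genotype values lay closer together than its times.

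Other genes of striatal projection neurons gave mixed values. Of 26 genes listed, 23 were found and 18 passed the filter, with 10 higher and 2 lower in Snord116del at Zt +6 and 7 higher and 0 lower at Zt +16, and medians of 0.61 and 0.56. Over all tested genes the shares were 49.3% higher and 7.62% lower at Zt +6 and 19.0% and 0.204% at Zt +16, so the 10 of 18 at Zt +6 lay near the share of the whole table. Among the 5 largest differences at Zt +6 were those of the G protein gene Gnal (1.66), the adenylyl cyclase gene Adcy5 (1.41), the sodium channel subunit gene Scn4b (1.26) and the dopamine D1 receptor gene Drd1a (1.22). The 2 lower genes, named after their values were seen, were Tac1, which encodes substance P, at 36.6 and 20.4 FPKM, and the retinoid X receptor gene Rxrg at 7.23 and 4.07 FPKM. At Zt +16 the 5 largest included Lrrc10b (0.78), Tac1 (0.70), the enkephalin gene Penk (0.70) and Rasgrp2 (0.68). Penk was the highest gene of the list in every group, with 145 and 98.0 FPKM at Zt +6 and 264 and 429 at Zt +16. The sum of this list relative to the cortical genes was 1.70 and 1.20 at Zt +6, lower in Snord116del, whereas that of the 7 signalling genes was higher, and 4.22 and 3.87 at Zt +16. Without Penk it was 0.790 in both groups at Zt +6 and 1.73 and 1.53 at Zt +16.

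Of 47 other genes of the dopamine and cyclic AMP pathway found, 40 passed the filter. At Zt +6, 28 were higher and 3 lower in Snord116del, with a median of 1.01, and at Zt +16, 14 were higher and 0 lower, with a median of 0.41. The shares over all tested genes were 49.3% higher and 7.62% lower at Zt +6, with a median of 0.57, and 19.0% and 0.204% at Zt +16, with a median of 0.35. The largest at Zt +6 were Rgs7bp (1.93), which anchors Rgs9-family proteins at the membrane, the calcineurin subunit gene Ppp3ca (1.69), Gnal (1.66), the adenylyl cyclase gene Adcy9 (1.54) and the protein kinase A subunit gene Prkar2b (1.54). The 3 lower ones, named after their values were seen, were the dopamine synthesis gene Th (-1.36), the stimulatory G protein gene Gnas (-0.85) and Prkar1b (-0.80). Gnb5, named here for its role as the partner of Rgs9 in its active complex, was listed at 10.1 and 14.3 FPKM at Zt +6 and 9.01 and 13.6 at Zt +16, and was not counted as changed. At Zt +16 the largest were the phosphodiesterase gene Pde1b (1.02), Ppp1ca (0.96), which encodes a catalytic subunit of the phosphatase that DARPP-32 inhibits, the kinase gene Cdk5 (0.77), Gng7 (0.75) and Ppp3ca (0.75).

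Of 14 retinoic acid genes, the setting of Rarb, 10 passed the filter. At Zt +6, 1 was higher and 2 lower, with a median of 0.06, and at Zt +16, 1 was higher, with a median of 0.42. Over all tested genes 49.3% were higher and 7.62% lower at Zt +6, with a median of 0.57. At Zt +16 the shares were 19.0% and 0.204%, with a median of 0.35. The synthesis gene Aldh1a1 was the higher one at Zt +6 (1.29) and Rxrg (-0.70) and the binding protein gene Crabp1 (-2.18) the lower ones, while at Zt +16 Crabp1 was the higher one (0.69).

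Markers of other regions and cells moved with some groups. Thalamus genes summed to 9.10 and 22.7 FPKM at Zt +6 and 7.06 and 7.54 at Zt +16, with 3 of 4 tested higher in Snord116del at Zt +6 and 0 at Zt +16. Prkcd (2.22 FPKM) and Slc17a6 (3.09 FPKM), which are among those counted as higher, reached 1 FPKM only in Snord116del at Zt +6. Choroid plexus genes, of which 1 of 7 passed the filter, summed to 204 and 186 FPKM at Zt +6 and 26.5 and 31.5 at Zt +16, and that 1 gene, Ttr, was listed at 200 and 182 FPKM at Zt +6 and 24.9 and 29.6 at Zt +16. Hypothalamic genes, of which 3 of 6 passed, summed to 8.97, 5.32 and 7.54 FPKM in the first 3 groups and 190 in Snord116del at Zt +16, where Oxt was listed at 107 and Avp at 76.6 FPKM. In that group Ppp1r1b (18.1 FPKM) and Rgs9 (16.3) had their highest values, Rasd2 was at 13.4 with 5.91 in its WT counterpart, and Drd2, Adora2a, Pde10a and Rarb were at 1.56, 0.379, 2.36 and 0.353. Of the other striatal genes Penk (429), Tac1 (102) and Rxrg (24.0) also had their highest values there. Gnal (4.78 there against 18.8), Adcy5 (8.18 against 16.3), Drd1a (2.99 against 5.15) and Scn4b (1.53 against 5.04) were instead highest in Snord116del at Zt +6. The genes named are examples from both sides of that list. Snord116del at Zt +16 also had the highest total FPKM of the 4 groups (342188). Astrocyte genes, 5 of 5 higher at Zt +6 and 0 at Zt +16, summed to 33.3, 98.5, 14.8 and 19.1 FPKM. Genes of all neurons (2 of 5 higher at each time), oligodendrocytes (2 and 3 of 5), microglia (4 and 3 of 5) and endothelium (3 and 0 of 4) had no lower gene at either time. Of the endothelial genes, Pecam1 and Flt1 reached 1 FPKM only in Snord116del at Zt +6. Of all tested genes 49.3% were higher at Zt +6 and 19.0% at Zt +16, and the small marker counts were not tested against those shares. The part of these markers in the values of the striatal signalling genes was not tested. The deleted snoRNA entries Snord116, Snord116l1 and Snord116l2 are listed at 0 in all 4 groups and check no label, and Ipw, a gene downstream of the deletion, was listed at 21.6 and 3.40 FPKM at Zt +6 and 3.17 and 1.82 at Zt +16.

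The genes nearest in pattern were found by the Euclidean distance between log2(FPKM + 1) values in the 4 groups after each gene's own mean was subtracted. The 10 nearest to the mean of the 5 genes were 3110003A17Rik, Kcnt1, Amd1, Sfxn3, Slc27a1, Exoc6b, Golph3, Dnm3, Psmd11 and Ei24, at distances from 0.012 to 0.092. None of them was in the lists of striatal or dopamine pathway genes. Those lists hold only 18 and 40 of the 10297 tested genes, so their absence among 10 genes says nothing about the pattern. The mean pattern lay between unlike members: Ppp1r1b and Rasd2 were 0.30 apart and Adora2a and Rarb 0.19, whereas Rgs9 and Pde10a were 1.96 apart. The 3 nearest genes were Gpbp1l1, Kcnk2 and Thy1 for Ppp1r1b, Gspt1, 4833424O15Rik and Nova1 for Drd2, and Fam184a, Zcchc14 and Sall1 for Adora2a. They were Scrg1, Pon2 and Snrpn for Rgs9, Adam15, Pex6 and Grik5 for Rasd2, Ubr3, Mtpn and Cadm2 for Pde10a, and Olfr856-ps1, Cyth1 and Zkscan6 for Rarb. Snrpn, which lies upstream of Snord116 in the same imprinted locus, was listed at 65.3 and 105 FPKM at Zt +6 and 90.0 and 149 at Zt +16. A distance over 4 values describes these groups only.

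A second readout was chromatin isolation by RNA purification (ChIRP), in which biotinylated oligos against the long non-coding RNA 116HG, made from the Snord116 locus, pull down the DNA bound to it. Peaks were deposited for 2 WT brain replicates with 116HG oligos and for 3 controls of 1 library each, namely Snord116del brain with 116HG oligos and brain of either genotype with non-specific control (NSC) oligos. Within 2 kb, 5 of the 7 genes had a peak of replicate 1, against 59.4% of the 21853 annotated genes. Of the 5 that passed the FPKM filter 4 had one, against 93.6% of the annotated genes that passed it. Ppp1r1b had 7 peaks, Rgs9 6, Rasd2 6, Pde10a 21 and Rarb 3, and Drd2 and Adora2a had none. In replicate 2 Rarb alone had a peak, 1 of 7 genes against 13.9% of all. None of the 7 had a replicate 1 peak within 10 kb of a replicate 2 peak, against 10.9% of all genes and 18.1% of those that passed the filter. Of the controls, the Snord116del NSC list had 1 peak, in an intron of Pde10a, and the other 2 lists had none. The shares of all annotated genes were 7.88% for Snord116del NSC, 2.30% for WT NSC and 2.26% for Snord116del with 116HG oligos. With shares this small, few or no peaks at 7 genes say little about them.

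The peaks of replicate 1 lay largely in exons. The midpoint of 26 of the 43 peaks fell in an exon, 9 in coding sequence and 17 in an untranslated region, although exons make up 3.26% of the bases of the 7 genes. In Rasd2 all 6 peaks were exonic and in Ppp1r1b 6 of 7, while both inner peaks of Rarb were intronic. Exons make up 31.2% of the bases of Rasd2 and of Ppp1r1b, but 0.849% of those of Rarb. The share of exonic peaks over all genes was not counted, so no trait of these 7 genes can be read from it. Drd2 (67.6 kb) and Adora2a (17.8 kb) had no peak in any list, while the longer Rarb (388 kb) had peaks in both replicates. None of the Rarb peaks held an exon base of Rarb. Whether peaks follow the RNA level was not tested. Many of the deposited folds over input were whole multiples of 10.26: within 0.02 of a step, 36 of the 43 values were, with a median of 5 steps and a highest of 17, and 69.8% of all 78033 peaks. The folds are coarse where this holds, and those of 2 peaks a step apart were not ranked.

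Sequences of 5 peaks, without untranslated bases, are shown, 5′ to 3′ on the strand of the gene. In replicate 1, those of Ppp1r1b, Rasd2 and Rarb had the highest or an equal fold among the gene's short peaks free of untranslated bases. A wider coding peak of Rasd2, at 82.08-fold, was left out by its width. The Rarb peak of replicate 2 was the only one there, and the Pde10a peak was taken for its place at the gene's start. The Ppp1r1b and Rasd2 peaks hold coding bases, given in capitals, 44 of 98 bases in Ppp1r1b and 228 of 230 in Rasd2. The Ppp1r1b peak (chr11:98212612-98212709, mm9, plus strand, 51.30-fold over input) runs over the end of an exon into the intron, where its middle lies, and that of Rasd2 (chr8:77745616-77745845, plus strand, 41.04-fold) covers an exon from its first base.
Ppp1r1b exon and intron peak: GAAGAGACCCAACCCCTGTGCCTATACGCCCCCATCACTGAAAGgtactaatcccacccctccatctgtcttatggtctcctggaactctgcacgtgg
Rasd2 coding peak: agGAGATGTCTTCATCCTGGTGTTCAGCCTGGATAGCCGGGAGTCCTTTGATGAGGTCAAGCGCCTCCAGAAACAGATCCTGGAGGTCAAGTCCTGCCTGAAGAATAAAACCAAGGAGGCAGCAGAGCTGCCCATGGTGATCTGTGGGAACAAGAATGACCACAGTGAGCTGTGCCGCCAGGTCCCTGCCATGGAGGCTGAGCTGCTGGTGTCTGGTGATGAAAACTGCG

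Of the 17 replicate 1 peaks in introns or outside the gene, 4 had most of their bases in runs of 20 or more that are identical to a transcript of another gene. A peak in an intron of Pde10a shared 63.8% of its bases with the actin gene Actb. The intronic Rarb peak below (chr14:17284596-17284700, minus strand, 112.9-fold) shared 96.2% with Gm10132 and with the ribosomal protein gene Rpl23a, and the peak beyond the 3′ end of Rarb lay on the neighbouring gene Top2b, with 96.9% shared. In the sequence of the intronic Rarb peak the shared bases are in capitals.
Rarb intron peak, replicate 1: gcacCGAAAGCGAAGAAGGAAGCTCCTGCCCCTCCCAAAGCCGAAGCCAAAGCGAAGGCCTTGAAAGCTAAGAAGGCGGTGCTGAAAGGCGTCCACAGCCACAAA

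The other 2 peaks shown share fewer bases. The Pde10a peak at the start of the gene (61.56-fold) is shown up to the base before the annotated start (chr17:8718081-8718236) and holds a run of alternating c and a near its end. Its shared run of 21 bases (10.7% of the whole peak, with Rybp) lies in the untranslated bases left out, so there are no capitals. The single Rarb peak of replicate 2 (chr14:17608903-17608974, minus strand) has 16.7% G and C and 26 shared bases in capitals, which begin within a stretch of t that follows alternating t and a, and folds over input were not used for that list.
Pde10a start peak: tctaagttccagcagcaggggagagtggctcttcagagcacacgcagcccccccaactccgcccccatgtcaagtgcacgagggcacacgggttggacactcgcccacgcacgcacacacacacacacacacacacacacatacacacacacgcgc
Rarb intron peak, replicate 2: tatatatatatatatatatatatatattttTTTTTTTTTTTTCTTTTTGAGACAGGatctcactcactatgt

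**Figure D5:**
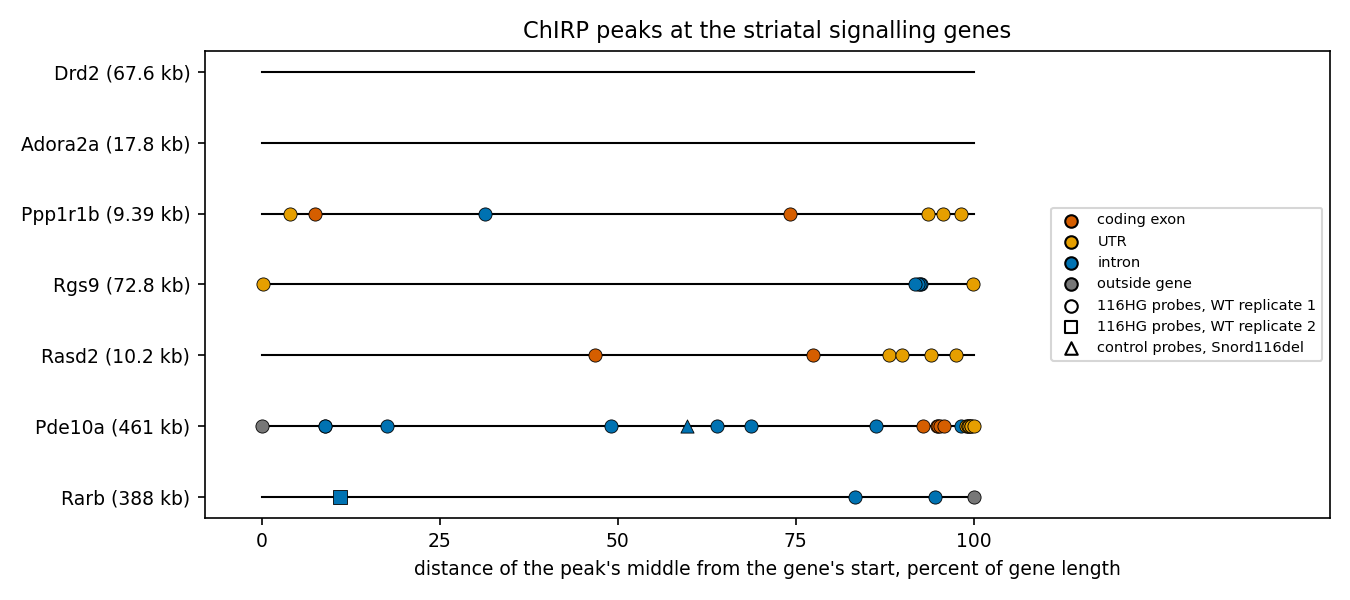
Middle of each deposited ChIRP peak within 2 kb of a striatal signalling gene, as its distance from the start of the gene in percent of gene length (horizontal axis), with 1 line for each gene and its length in kb; colours give the place of the middle and shapes the library. The 43 peaks of WT replicate 1 (circles) include 26 in exons, and the single peaks of WT replicate 2 (square) and of the Snord116del control (triangle) lie in introns.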

How the data were processed

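RNA-seq libraries of cortex and ChIRP-seq libraries of brain were analysed. Per the labels and the study's methods, the authors aligned RNA-seq reads with TopHat2 (2.0.5) to mm9 and deposited 1 Cuffdiff (2.0.2) FPKM value per gene and group, a unit scaled to transcript length and library size. They aligned ChIRP reads with Bowtie2 (2.0.0), called peaks with MACS (1.4.2) in each library and deposited the fold over input as a ratio for every list but WT replicate 2, which gives positions. The submitters' processing notes name these versions. The table's log2 fold change, q-value and call columns hold the authors' comparison of genotypes at each time and were not used. No column of single-mouse values was left out, since there is none, and the read numbers that the study's methods give for each library were not used here.

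The design foresaw limma if the table held single mice and otherwise a fold rule, which applied: FPKM + 1 changed at least 1.5-fold, at least 1 FPKM in the higher group, mean of at least 1 FPKM over 4 groups. The 7 genes and all lists were chosen with earlier results of these data known. Of each list, at most the 5 largest genotype differences past the rule are named, with exceptions marked. Peaks and genes were placed by the vM1 release of GENCODE on NCBIM37, which is the mm9 assembly, and 21853 of the 23235 symbols were found in it. Transcript length was known for 98.7% of tested genes and GC content for 96.6%. Code was tested on simulated data and run in Python 3.11.15 with pandas 2.3.3, numpy 2.4.6, matplotlib 3.10.9 and samtools 1.23.1. Alternatives covered the pseudocount, filter, scale, fold, transcript length, GC content, ratio, rank background and peak distances. The values of 1 listed gene and the sequences of 2 peaks are not reported here.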

Additional observations from a re-analysis of the deposited data

Results flagged for a closer look

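Genes of the lists with calls in opposite directions at Zt +6 and Zt +16 were Tac1, Prkar1b, Crabp1 and Avp, and the difference between the times was not tested, since each group has 1 value. Tac1 was lower in Snord116del at Zt +6 (-0.81) and higher at Zt +16 (0.70), 1.51 apart on the log2(FPKM + 1) scale. Prkar1b, a regulatory subunit of protein kinase A, went from -0.80 to 0.61, 1.42 apart. Crabp1, a retinoic acid binding protein, went from -2.18 to 0.69, 2.88 apart. Avp, the vasopressin gene of the hypothalamic list, went from -1.21 to 4.43, 5.64 apart. By time, Avp was lower at Zt +16 in WT (-0.71) and higher in Snord116del (4.92), also 5.64 apart. Crabp1 (802 bases) and Avp (577) fall in the shortest transcript length bin, whose medians were -0.47 at Zt +6 and 0.59 at Zt +16. Tac1 (1034 bases) falls in the next bin, with medians of -0.34 and 0.56. Prkar1b (2637 bases) falls in a bin with medians of 0.45 and 0.38. The share of all tested genes with opposite calls was not counted. None of the 7 striatal signalling genes had calls in opposite directions.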

How the results depend on the processing

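No paired analysis was possible because the table gives 1 value for each group and none for a mouse; for the same reason no replicate could be left out. The GC content alternative was chosen after seeing the data. Counts are of genes past the limit, and causes of changes were not tested beyond what each alternative's construction shows. Of the 5 genes tested, the count higher in Snord116del at Zt +6 became 3 of 3 with a mean of at least 5 FPKM, 2 with the same median in every group, with quantile normalization, with the transcript length trend removed and with a fold of 2, and 3 with the GC content trend removed. With the same median, Ppp1r1b, Rgs9 and Rasd2 turned to -0.03, -0.03 and -0.03. The count of 3 at Zt +16 became 1 with the same median and with a fold of 2, and 0 with the same total and with quantile normalization. By time in WT, the 1 gene lower at Zt +16 became 0 with a mean of at least 5 FPKM, the same median, quantile normalization, either trend removed or a fold of 2, and 2 with the same total or a lower fold limit. Of all tested genes, 29.0% were lower in WT with the same total and 22.5% with the lower fold limit. By time in Snord116del, the 2 lower genes became 4 of 7 with no filter, 0 of 3 with a mean of at least 5 FPKM, 4 with the same total and 1 with quantile normalization. With the same total Ppp1r1b turned to -0.98 and Rgs9 to -0.40. Of all genes tested, 22.7% were lower with no filter, 66.6% with the same total and 28.2% with quantile normalization. The median difference of differences, 0.11, became 0.46 with the same median, 0.03 with the length trend removed, and turned to -0.51 with the same total, -0.0034 with quantile normalization and -0.31 with the GC trend removed. Of the other striatal genes, the 10 higher at Zt +6 became 3 with a mean of at least 5 FPKM or the length trend removed, 5 with the same median, quantile normalization or a fold of 2, and 4 with the GC trend removed, and the 7 at Zt +16 became 13 with a pseudocount of 0.1, 16 with a lower fold limit, and 0 with any scaling, either trend removed or a fold of 2. Of the dopamine and cyclic AMP genes, the 28 higher at Zt +6 became 16 with a mean of at least 5 FPKM, 12 with the same median, 8 with the length trend removed and 15 with the GC trend removed. The 14 at Zt +16 became 1 with the same median, either trend removed or a fold of 2, 0 with the same total or quantile normalization, and 22 with a lower fold limit. Among all genes tested, those higher and lower at Zt +6 went from 5073 and 785 to 1522 and 2493 with the same median, 2285 and 2121 with quantile normalization and 1262 and 1399 with the length trend removed. Those at Zt +16 went from 1959 and 21 to 124 and 53, 40 and 52, and 97 and 72, and with the same total to 32 and 102. The median rank of the 7 genes went from percentile 46.2 to 75.2, 30.1 to 67.6 and 34.7 to 69.5 in WT at Zt +6, WT at Zt +16 and Snord116del at Zt +16 when all genes above 0 FPKM were the background. The ratio to cortical genes and the counts of genes with peaks kept their direction and size within 1.5-fold. For single genes, 151 values kept their side of the limit, 10 of them, all short of it, with the other sign, and 30 fell short of the limit, 6 passed it and 5 that were counted as changed before or after turned.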
